A study of Mus musculus with 7 samples.

Results

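The mitochondrial genome of the mouse is a small circle, present in many copies per cell, that encodes 37 of the 55401 genes in the count table. These genes were taken as all rows whose gene name begins with mt-. They comprise 13 mRNAs for subunits of the respiratory chain and ATP synthase, 2 rRNAs of the mitochondrial ribosome, and 22 tRNAs. Their transcripts were compared between 4 samples of WT and 3 samples of Trpc1-/- knee tissue. All 7 came from male C57BL/6J mice that were 10 weeks old at destabilization of the medial meniscus (DMM) of the right knee, a surgery that induces osteoarthritis, and that were collected 2 weeks later. No sham or unoperated sample entered the comparison. Trpc1 encodes an ion channel that helps to refill intracellular calcium stores. The Trpc1-/- mice carried the constitutive Trpc1tm1Lbi allele, which lacks exon 8, and the WT mice came from the same breeding colony. Each sample pooled the RNA of several mice. The labels name articular cartilage, whereas the methods add subchondral bone. The labels give 4 WT and 3 Trpc1-/- samples, the methods the reverse, and the labels were followed. In bulk tissue, fewer cells of a type and less RNA per cell cannot be told apart.

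Mitochondrial DNA (mtDNA) is read almost end to end from both strands into long precursors by a dedicated polymerase, Polrmt, together with the factors Tfam and Tfb2m. Most tRNAs lie between the longer genes, and their excision releases the rRNAs and mRNAs. The rRNAs, 12 of the 13 mRNAs, and 14 of the tRNAs are sense to one strand. mt-Nd6 and 8 tRNAs lie on the other. Cartilage is avascular and its chondrocytes depend largely on glycolysis, while skeletal muscle fibres are rich in mitochondria.

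The total on genes ranged from 52142451 counts in WT 1 to 118254070 in Trpc1-/- 1. Trpc1 itself, a check of the labels, lay between 4.33 and 4.83 CPM (each count scaled to the normalized library total) in WT and between 3.04 and 3.79 in Trpc1-/- samples, without overlap (log2 fold change of Trpc1-/- over WT, logFC, -0.44, SE 0.13, edgeR adjusted P = 0.407). Groups were likewise apart, with lower values in Trpc1-/- samples, in 6.42% of all tested genes, so this check is weak. Of the 12 chondrocyte markers and the 9 osteoblast and osteocyte markers, none was at 0. Col2a1, the main collagen of cartilage, averaged 2617 CPM and Col1a1, the main collagen of bone, 7642 CPM. Erythroid markers summed to between 18963 and 36133 CPM in WT and between 41728 and 57132 CPM in Trpc1-/- samples. WT 1 stood apart from the other samples in the mitochondrial genes, and values without it are given beside the results that it moved most.

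Before the levels are read, the sequences matter, because part of mtDNA has a second, nuclear copy in GRCm38. The genes in chrM:6390-11042 (4653 bases) have matches in chr1:24611535-24616188 (4654 bases, minus strand). Only annotated transcripts were aligned, so the sequence between them was not compared. The chromosome 1 stretch carries 7 rows annotated as unprocessed pseudogenes, in the same order as their mitochondrial counterparts and with the same spacing, apart from 1 additional base in the interval that holds mt-Tr. Gm28661, Gm10925, Gm28437, and Gm10222 matched mt-Co2, mt-Atp6, mt-Co3, and mt-Nd4l without a mismatch over all but the last 1 to 3 bases of the gene. Gm28439 matched 876 of the 1378 bases of mt-Nd4 without a mismatch. The other rows each differed from mtDNA by 1 base. Counted from the first base of the mitochondrial gene, Gm28438 differed from mt-Nd3 by T3C and Gm29216 from the last 483 bases of mt-Co1 by A1066T. Gm29216 matched from its base 10 onward. Because these single bases are the mismatches within the matched parts, 61 bases at each are given, from GENCODE M21, with the differing base in capitals.
mt-Nd3, chrM:9459-9519, plus strand: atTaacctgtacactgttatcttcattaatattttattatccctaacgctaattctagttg
Gm28438, chr1:24613059-24613119, minus strand: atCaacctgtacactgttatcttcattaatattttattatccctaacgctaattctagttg
mt-Co1, chrM:6390-6450, plus strand: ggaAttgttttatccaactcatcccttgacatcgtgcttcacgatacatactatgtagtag
Gm29216, chr1:24616128-24616188, minus strand: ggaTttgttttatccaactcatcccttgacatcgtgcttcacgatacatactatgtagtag

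A 75-base read that lies wholly within such a match cannot be assigned to 1 of the 2 places by its sequence. Of all windows of 75 bases, 99.5% of those in mt-Co2 and mt-Atp6, 99.9% in mt-Co3, 98.7% in mt-Nd4l, 97.8% in mt-Nd3, 61.5% in mt-Nd4, and 27.5% in mt-Co1 were also present in a chromosome 1 row. In mt-Nd1, mt-Nd2, mt-Atp8, mt-Nd5, mt-Nd6, mt-Cytb, and both rRNAs the share was 0. mt-Atp8 nevertheless lies inside the copied stretch. Most of it falls between annotated chromosome 1 rows, so its sequence there was not compared. The deposited counts at the 2 places were almost equal wherever the match covered nearly the whole gene. Whether such reads were split between the places or counted in full at both cannot be told from these counts. In WT 1, mt-Co3 had 81039 counts and Gm28437 80853. mt-Co2 had 45889 counts and Gm28661 45734. mt-Nd3 had 7766 counts and Gm28438 7786. Over the 7 samples, the count on the nuclear row divided by that on the mitochondrial gene lay between 0.998 and 0.999 for mt-Co3, 0.994 and 0.997 for mt-Co2, 0.997 and 1.01 for mt-Nd3, 0.990 and 1.00 for mt-Nd4l, and 1.02 and 1.03 for mt-Atp6. For mt-Nd4 and mt-Co1, of which only a part is copied, the same quotient lay between 0.315 and 0.374 and between 0.202 and 0.213. The quotients were thus nearly constant from sample to sample, in WT as in Trpc1-/- knees. How much of this RNA, if any, was transcribed from chromosome 1 cannot be told apart in these counts. The 7 rows together held between 0.363% and 0.470% of all counts, against 0.939% to 1.20% on the 13 mitochondrial mRNA genes. Other nuclear copies were less alike and lower. The most abundant was Gm13340, 97.6% identical to mt-Co1, at between 68.9 and 104 CPM.

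**Figure D1:**
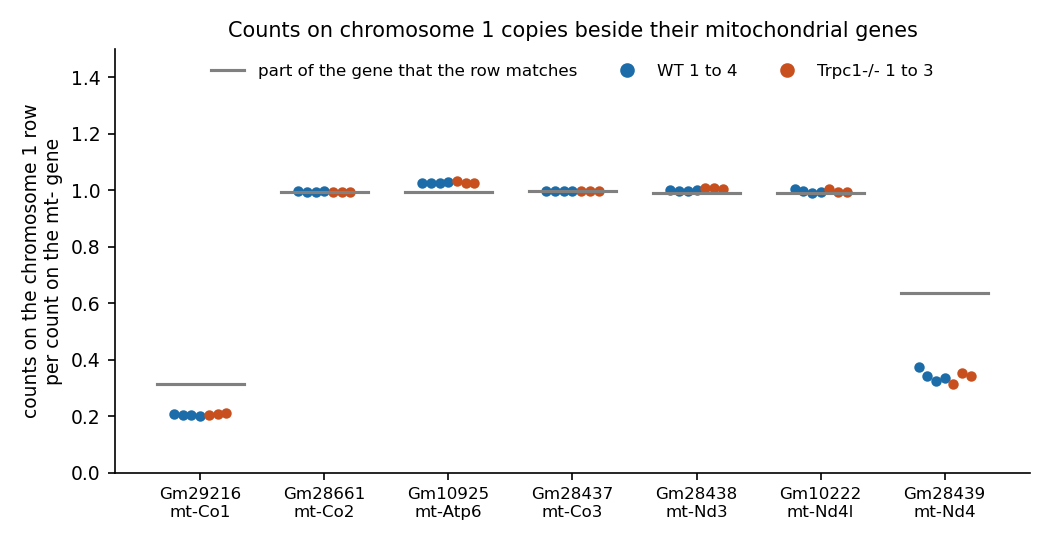
Counts on each of the 7 chromosome 1 rows divided by the counts on the matching mitochondrial gene (y axis, no unit), with 1 point per sample and a grey line at the share of the gene's length that the row matches. Where the match covers nearly the whole gene, every sample sits near 1, and mt-Co1 and mt-Nd4 lie near 0.207 and 0.342.

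The level of a transcript was compared between genes as CPM per kb of gene length. mt-Rnr2, the 16S rRNA, was the highest in every sample, at 92314 CPM per kb on average, followed by mt-Rnr1, the 12S rRNA, at 11490. The libraries were made after rRNA depletion with RiboZero, so the rRNA values describe what was left after that step. Among the mRNAs, mt-Co1, a catalytic subunit of complex IV (cytochrome c oxidase), came first at 3292 CPM per kb. mt-Co3 and mt-Co2, the other mitochondrial subunits of complex IV, followed at 1733 and 1182. mt-Atp6 of the ATP synthase averaged 905 CPM per kb, and mt-Nd1 of complex I (NADH dehydrogenase) 865. This pair did not differ beyond its spread, since mt-Atp6 was the higher in 6 of the 7 samples. mt-Cytb, the mitochondrial subunit of complex III, averaged 681 CPM per kb and mt-Atp8 609. The remaining complex I mRNAs were lower, with mt-Nd3 at 374, mt-Nd4 at 197, mt-Nd2 at 191, mt-Nd5 at 132, and mt-Nd4l at 69.4 CPM per kb. mt-Nd4 and mt-Nd2 held that order in 4 of 7 samples. mt-Nd6, the mRNA of the other strand, was the lowest in every sample, at 17.1 CPM per kb. Of these 15 genes, 11 had the same place in the order in all 7 samples. From mt-Co2 to mt-Nd4l, the ranges of neighbours overlapped in CPM per kb even where each sample kept the order.

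Counting the chromosome 1 rows with their genes changed this order. mt-Co3 then averaged 3462 CPM per kb and mt-Co2 2359, while mt-Co1 rose less, to 3973. mt-Nd3, at 749 CPM per kb, moved above mt-Cytb and mt-Atp8 on average, and mt-Nd4l, at 139, above mt-Nd5. mt-Atp8, though inside the copied stretch, has no row of its own that could be added. mt-Nd4l and mt-Nd4 lie side by side on 1 precursor. Their levels went from 69.4 and 197 to 139 and 266 CPM per kb, closer in proportion but hardly in difference. With the rows added, 9 of the 15 genes kept 1 place in all samples. The places of mt-Nd3 and mt-Nd4l in the order therefore depended on where reads with 2 possible origins were counted. If such reads had been counted in full at both places, the added values would hold them more than once.

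**Figure D2:**
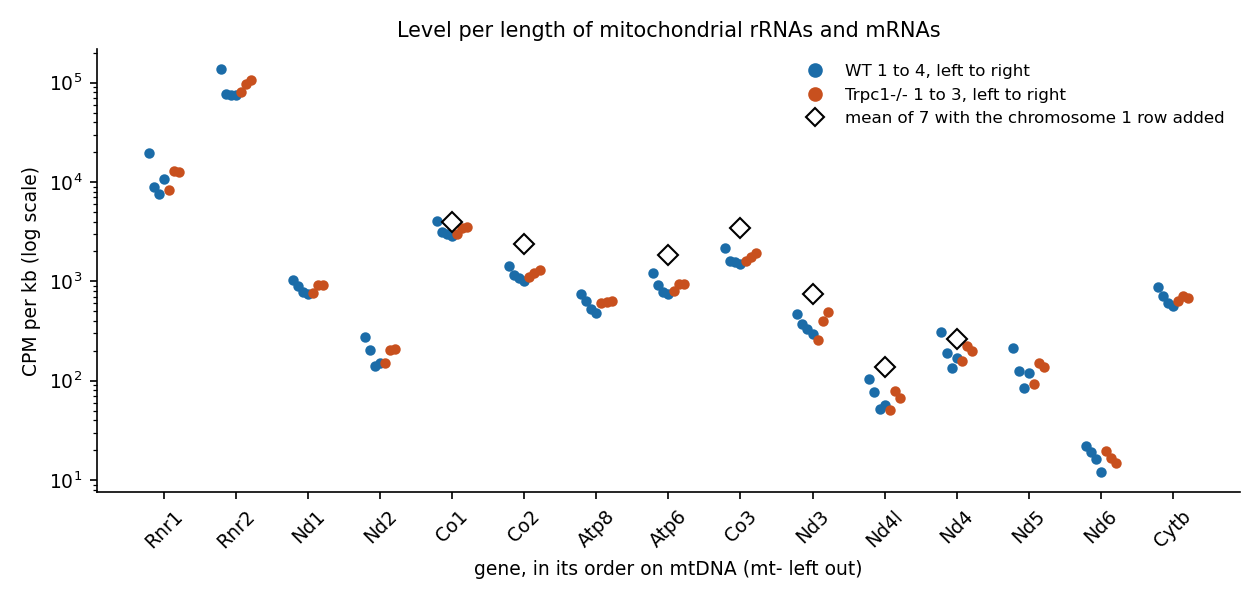
Level of the 2 rRNAs and 13 mRNAs in CPM per kb (log scale), in their order on mtDNA, with 1 point per sample and a diamond at the mean of the 7 samples after the chromosome 1 row was added. Levels span from 17.1 for mt-Nd6 to 92314 CPM per kb for mt-Rnr2 on average, and mt-Co2, mt-Atp6, mt-Co3, mt-Nd3, and mt-Nd4l shift upward by about the same factor.

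Mitochondrial genes as a whole took between 14.2% and 22.5% of all counts. The share was 16.5% ± 4.04 (SD, n = 4) in WT and 16.6% ± 1.43 (SD, n = 3) in Trpc1-/- samples, a difference of 0.110 percentage points that is smaller than the spread within either group. The rRNAs held most of it. Their share was 21.3% in WT 1, 13.8% in WT 2, 13.2% in WT 3, and 13.4% in WT 4, against 14.0%, 16.2%, and 16.5% in Trpc1-/- 1 to 3. WT 1 was thus the highest of all samples, the other WT samples were the lowest, and the groups overlapped. The mRNAs took 1.20%, 1.08%, 0.976%, and 0.939% in WT 1 to 4, and 0.981%, 1.07%, and 1.03% in the Trpc1-/- samples. The tRNA rows took between 0.00588% and 0.00811%. These shares rest on so many reads that the 95% Wilson intervals were at most 0.0113 percentage points to either side, which covers counting error only. No test was made of the shares, which are scores over the chosen genes.

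Without WT 1, the picture of the rRNAs changed. The remaining WT samples averaged 13.5% ± 0.316 (SD, n = 3) on rRNA, 2.09 percentage points below the Trpc1-/- mean of 15.6% ± 1.39 (SD, n = 3), and the groups no longer overlapped. The sample left out was the one with the highest rRNA share. Without it, the groups were also apart in 22.9% of all tested genes, and in 11.4% with higher values in Trpc1-/- samples. For the mRNAs, the same step moved the difference from -0.0219 to 0.0293 percentage points, and the groups still overlapped. The ratio of rRNA to mRNA counts was 14.6 ± 2.17 (SD, n = 4) in WT and 15.1 ± 0.886 (SD, n = 3) in Trpc1-/- samples. It was highest in WT 1, at 17.7, against 12.8 to 14.2 in the other WT samples. Without WT 1 the log2 difference moved from 0.06 to 0.16 and the groups no longer overlapped, by a narrow margin (14.22 in WT 4 and 14.23 in Trpc1-/- 1).

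**Figure D3:**
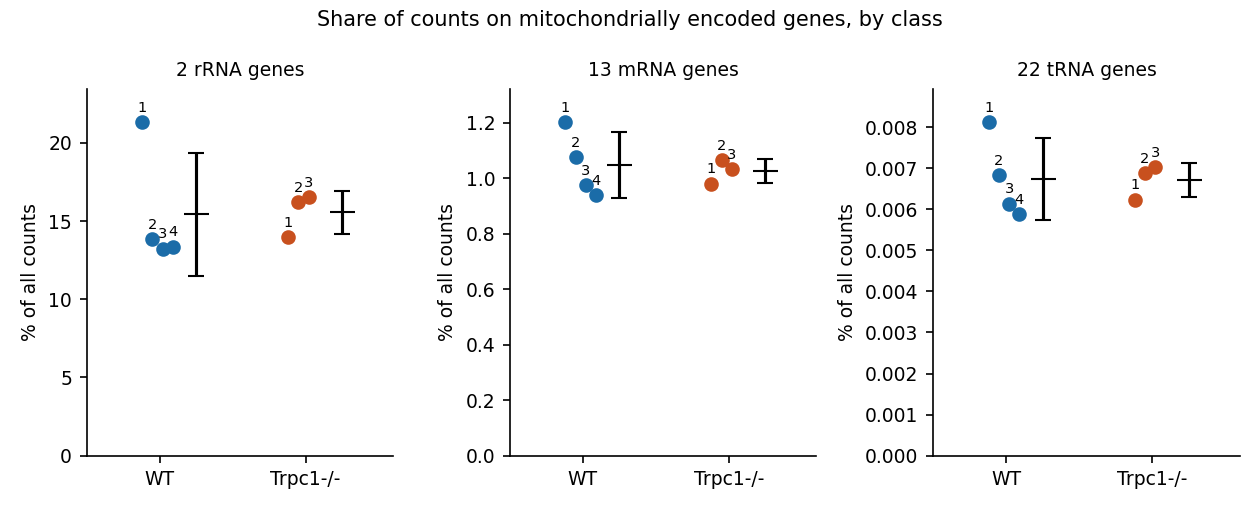
Percentage of all counts on the rRNA, mRNA, and tRNA genes of the mitochondrion, with 1 numbered point per sample and the mean ± SD of each group beside it. WT 1 is the highest sample in each class, at 21.3% for rRNA, and the group means differ by less than their SDs.

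Gene by gene, no mitochondrial transcript passed the test between the genotypes. Of the 37 genes, 19 passed the filter of more than 1 CPM in at least 2 samples, namely the 15 rRNA and mRNA genes and 4 tRNA genes. In edgeR's quasi-likelihood test, adjusted over all 16429 tested genes, none of the 19 was called, with adjusted P values from 0.577 to 1.00. The background was also 0%, since 0 of the 16429 genes were called. At an unadjusted P under 0.05 there were 0 members, where the background was 10.0%. DESeq2 called 0 members, with 1.79% of genes called in the background. In no member were the groups apart, against 13.6% of all tested genes. The logFC was positive for 11 members and negative for 8, with a median of 0.02, beside -0.01 over all tested genes.

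The rRNAs were the most abundant members. mt-Rnr2 measured 215591, 121997, 118508, and 117765 CPM in WT 1 to 4, and 126876, 153488, and 168058 CPM in Trpc1-/- 1 to 3. All Trpc1-/- samples therefore lay above WT 2 to 4 and below WT 1. The logFC was 0.06 (SE 0.33), with a 95% interval from -0.71 to 0.83. mt-Rnr1 measured 18683, 8579, 7269, and 10142 CPM in WT, and 7985, 12200, and 11954 CPM in Trpc1-/- samples, with a logFC of -0.06 (SE 0.35). Here the groups overlapped with or without WT 1. The ratio of mt-Rnr2 to mt-Rnr1 per length, which does not depend on the library total, was 8.10 ± 1.38 (SD, n = 4) in WT and 8.56 ± 1.00 (SD, n = 3) in Trpc1-/- samples (exact permutation test, two-sided, P = 0.571, adjusted over 4 ratios P = 0.762). The smallest P that this design allows is 0.0286.

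The 3 mRNAs of complex IV had logFC values between 0.03 and 0.05. With library sizes alone as the scaling, 1 of the 3 stayed above 0. mt-Co1 measured 6258, 4829, 4601, and 4446 CPM in WT 1 to 4, and 4680, 5291, and 5497 CPM in Trpc1-/- 1 to 3, with a logFC of 0.03 (SE 0.17, 95% interval from -0.35 to 0.42). mt-Co2 averaged 796 ± 122 CPM (SD, n = 4) in WT and 825 ± 67.1 CPM (SD, n = 3) in Trpc1-/- samples, and mt-Co3 1344 ± 246 CPM (SD, n = 4) and 1378 ± 116 CPM (SD, n = 3). Their logFC values were 0.05 (SE 0.14) and 0.04 (SE 0.16). mt-Cytb of complex III averaged 788 ± 158 CPM (SD, n = 4) in WT and 768 ± 43.6 CPM (SD, n = 3) in Trpc1-/- samples. None of these pairs of groups was apart.

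The mRNAs of complex I had logFC values between -0.14 and 0.06, 5 of the 7 below 0, and 7 of 7 below 0 with library sizes alone as the scaling. The lowest was that of mt-Nd4l (SE 0.26), with 31.0, 22.8, 15.3, and 16.8 CPM in WT 1 to 4 and 15.1, 23.1, and 20.1 CPM in Trpc1-/- 1 to 3. mt-Nd5 followed with a logFC of -0.10 (SE 0.31), mt-Nd4 with -0.06 (SE 0.28), mt-Nd2 with -0.04 (SE 0.25), and mt-Nd6 with -0.03 (SE 0.20). mt-Nd1 had the same mean in both groups, at 827 CPM. mt-Nd3, with a logFC of 0.06 (SE 0.24), was the only mRNA whose highest value was in a Trpc1-/- sample, at 172 CPM in Trpc1-/- 3 against 89.0 in Trpc1-/- 1. In the ATP synthase, mt-Atp6 and mt-Atp8 had logFC values of -0.03 (SE 0.18) and 0.07 (SE 0.15). Among the rRNAs and mRNAs, the 95% intervals of the fold change ran from 0.545 for mt-Rnr1 to 1.77 for mt-Rnr2. They were narrower for other genes of these classes, such as 0.788 to 1.27 for mt-Nd1.

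**Figure D4:**
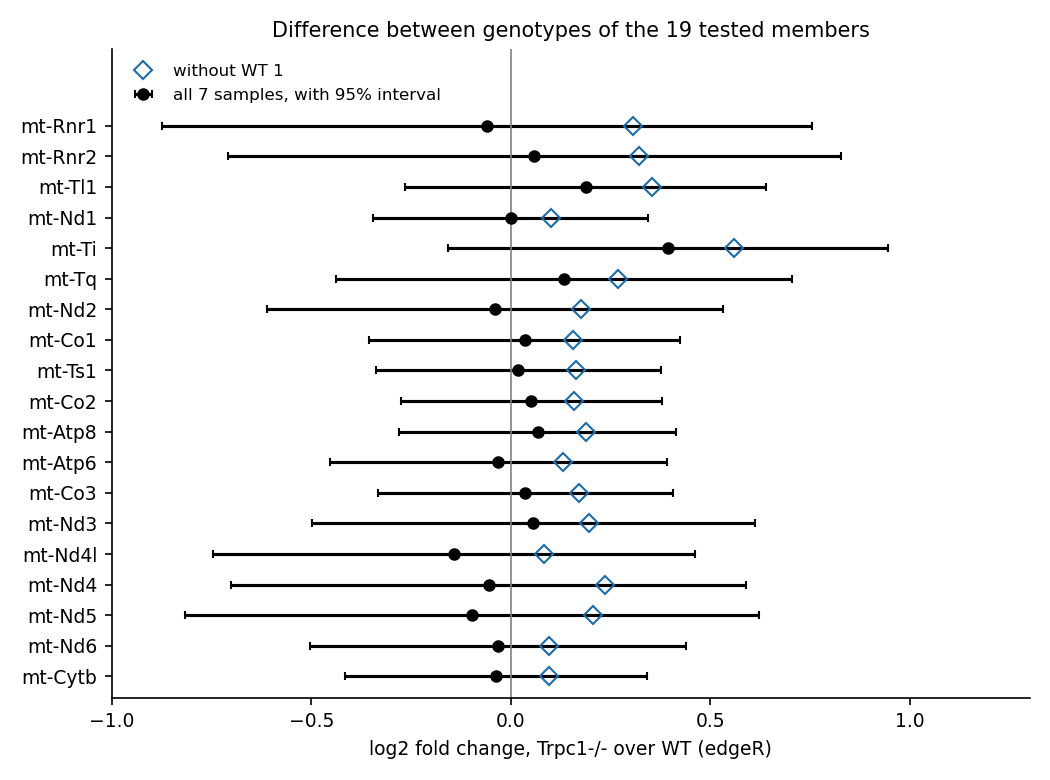
Log2 fold change of the 19 tested members, Trpc1-/- over WT, from edgeR with all 7 samples (circles, bars giving 95% intervals) and without WT 1 (diamonds). Every interval includes 0, and all 19 diamonds lie to the right of 0, from 0.08 for mt-Nd4l to 0.56 for mt-Ti.

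WT 1 was the highest sample in 17 of the 19 tested members. Leaving it out therefore lowers their WT mean and raises their logFC by construction. Without WT 1, all 19 members had a logFC above 0, with a median of 0.17, where 49.7% of all tested genes were above 0. This count is no test of genotype. The direction was the opposite when WT 3 and WT 4, whose numbers in the names of the count columns stand apart, were left out. Then 0 of the 13 mRNAs were above 0, with a median of -0.24, and mt-Nd4l, mt-Nd5, mt-Nd4, and mt-Rnr1 were at -0.47, -0.42, -0.38, and -0.35. With the replicate number as a block, a fit that leaves out WT 4, 0 of the 13 were above 0, with a median of -0.07. Leaving out WT 4 without a block gave a median of -0.12. Without WT 1, an unadjusted P under 0.05 was reached by mt-Ti and mt-Tl1 (edgeR adjusted P = 0.214 and 0.247), 2 of 19 members where the background was 16.9%. None was called by edgeR, against 0.320% of genes. DESeq2 called mt-Rnr2 (adjusted P = 0.032), with 5.49% of genes called. The groups were then apart for mt-Rnr2, mt-Co3, and mt-Ti, 3 of 19, all higher in Trpc1-/- samples, where the background was 22.9% in either direction and 11.4% higher. The 9 skeletal muscle markers also had logFC values above 0 without WT 1, with a median of 2.08, against 0.61 with all samples. Their mean log2(CPM + 1) was then 2.43 to 4.33 in WT and 4.68 to 6.37 in Trpc1-/- samples, without overlap.

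WT 1 exceeded the mean of the other WT samples by different factors from gene to gene. The factor was 2.16 for mt-Rnr1, 1.94 for mt-Nd5, 1.90 for mt-Nd4, 1.81 for mt-Rnr2, 1.70 for mt-Nd4l, and 1.65 for mt-Nd2. It was lower for mt-Co3 at 1.40, mt-Cytb at 1.39, mt-Co1 at 1.35, mt-Co2 at 1.31, and mt-Nd1 at 1.29. The same genes led when the spread was taken within both groups. The within-group SD of log2(CPM + 1) was 0.51 for mt-Rnr1, 0.48 for mt-Nd5, and 0.42 for mt-Nd4, and 0.18 to 0.20 for mt-Co2, mt-Co1, and mt-Nd1. The median over the 19 members was 0.24, beside 0.16 over all tested genes.

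The tRNA rows held few counts. The tRNAs, 59 to 75 bases long, are no longer than a read. Of the 22, 12 had counts in every sample, 4 in some, and 6 (mt-Tn, mt-Tc, mt-Td, mt-Tk, mt-Tg, and mt-Tr) were listed at 0 throughout. A level of 3 counts corresponded to between 0.0254 and 0.0575 CPM. Of the 5 tRNA genes inside the stretch copied on chromosome 1, 4 were listed at 0, against 2 of the 17 outside it. Chromosome 1 has no annotated row over these tRNAs. mt-Ta and mt-Tw had 17 and 35 counts in WT 2 and 0 in the 6 other samples. mt-Tm had 52, 59, 4, and 56 counts in WT 1 to 4 and 0, 99, and 101 counts in Trpc1-/- 1 to 3, so that its low values occurred in both groups. The sequences of the tRNA with the most counts, of mt-Tm, and of 2 tRNAs at 0 inside the copied stretch follow, 5′ to 3′, from GENCODE M21, since they show how near these genes are in length while their counts run from 6208 to 0.
mt-Ts1, chrM:6870-6938, minus strand: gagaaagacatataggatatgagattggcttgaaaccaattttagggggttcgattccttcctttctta
mt-Tm, chrM:3845-3913, plus strand: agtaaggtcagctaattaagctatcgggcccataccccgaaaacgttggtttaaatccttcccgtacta
mt-Tk, chrM:7700-7764, plus strand: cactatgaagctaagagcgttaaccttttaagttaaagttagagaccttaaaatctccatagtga
mt-Tr, chrM:9808-9875, plus strand: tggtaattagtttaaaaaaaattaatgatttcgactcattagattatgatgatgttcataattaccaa

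mt-Ts1, a serine tRNA, held between 80.7% and 85.8% of all tRNA counts. It lies on the strand opposite to mt-Co1 and overlaps the last 3 bases of that gene. mt-Ts1 measured 72.3, 54.1, 50.1, and 47.8 CPM in WT 1 to 4, and 50.7, 56.7, and 62.9 CPM in Trpc1-/- 1 to 3, with a logFC of 0.02 (SE 0.15). Its counts were 1.15%, 1.12%, 1.09%, and 1.08% of those on mt-Co1 in WT, and 1.08%, 1.07%, and 1.14% in Trpc1-/- samples, a coefficient of variation of 3.06% over the 7 samples. The next most constant quotient between a tRNA and its neighbour was that of mt-Tl1 to mt-Rnr2, at 8.72%. Libraries were stranded and aligned with the matching setting, but the part of mt-Co1 RNA in the count of its antisense neighbour was not tested.

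The other tested tRNAs were lower. mt-Tl1, a leucine tRNA that follows mt-Rnr2, measured 7.40, 5.34, 4.89, and 4.43 CPM in WT 1 to 4, and 5.28, 6.81, and 6.71 CPM in Trpc1-/- 1 to 3 (logFC 0.19, SE 0.20). mt-Ti, the isoleucine tRNA after mt-Nd1, measured 1.16, 0.700, 0.822, and 0.738 CPM in WT, and 0.931, 1.24, and 1.18 CPM in Trpc1-/- samples, the largest logFC of the 19 members (0.39, SE 0.24). It rested on 55 to 115 counts per sample. mt-Tq, the glutamine tRNA that overlaps mt-Ti on the other strand, had a logFC of 0.13 (SE 0.25). None was called, and both groups overlapped in each. Of the 18 untested tRNAs, the highest mean was that of mt-Tf, at 0.857 CPM.

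Ratios within a library were used to compare genes that share a precursor or a stretch of DNA. mt-Atp8 and mt-Atp6 are read from 1 bicistronic mRNA and overlap by 43 bases, and mt-Nd4l and mt-Nd4 by 7, so reads from these bases belong to both genes. The overlaps are shown in capitals, each with 20 flanking bases on either side.
mt-Atp8 and mt-Atp6, chrM:7907-7989, plus strand: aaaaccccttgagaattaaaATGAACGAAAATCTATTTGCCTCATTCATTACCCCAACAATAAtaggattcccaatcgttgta
mt-Nd4l and mt-Nd4, chrM:10147-10193, plus strand: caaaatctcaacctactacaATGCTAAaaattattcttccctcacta

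The ratio of mt-Atp8 to mt-Atp6, in counts per length, was 0.616, 0.690, 0.680, and 0.639 in WT 1 to 4, and 0.772, 0.662, and 0.676 in Trpc1-/- 1 to 3. The ratio of mt-Nd4l to mt-Nd4 was 0.366 ± 0.0347 (SD, n = 4) in WT and 0.337 ± 0.0172 (SD, n = 3) in Trpc1-/- samples. For both, the P value of the exact permutation test was 0.286 (two-sided, adjusted P = 0.571). Since mt-Atp6 and mt-Nd4l have a chromosome 1 row over nearly all of their length and mt-Atp8 has none of its own, these ratios depend on how such reads were counted. Across the strands, mt-Nd6 was compared with mt-Nd5, which it overlaps by 14 bases. The ratio was 0.102, 0.150, 0.190, and 0.102 in WT 1 to 4, and 0.209, 0.109, and 0.107 in Trpc1-/- 1 to 3, so that in each group values near 0.10 stood beside values of 0.15 or more (exact permutation test, two-sided, P = 0.886, adjusted P = 0.886). mt-Nd6 per kb was 0.0203 ± 0.00262 (SD, n = 4) of the mean of the 12 other mRNAs in WT and 0.0200 ± 0.00483 (SD, n = 3) in Trpc1-/- samples.

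The samples with much mt-Rnr2 and mt-Co1 RNA were also those with much RNA of skeletal muscle genes. Of the members, only these 2 were related to the markers, and not all others kept the order. mt-Rnr1 was higher in WT 4 (10142 CPM) than in WT 3 (7269 CPM), where the muscle markers were higher. The 9 muscle markers, which included the fast myosin heavy chain Myh4 and muscle creatine kinase Ckm, summed to 1267, 241, 188, and 61.3 CPM in WT 1 to 4, and to 377, 623, and 1053 CPM in Trpc1-/- 1 to 3. None of the 9 was at 0 on average, the highest being Myh4 at 209 CPM and the lowest Mb at 8.24 CPM. By the mean of log2(CPM + 1) of these markers, the 7 samples took exactly the order that they took by mt-Rnr2. Spearman's rho was 1.00 (exact permutation test, P = 0.000397, the smallest that 7 samples can give, adjusted over 18 relations P = 0.00714) and Pearson's r was 0.88 (exact permutation test, P = 0.00833, adjusted P = 0.075). For mt-Co1, rho was 0.96 (exact permutation test, P = 0.00278, adjusted P = 0.0167) and r 0.91 (exact permutation test, P = 0.00456, adjusted P = 0.075). Without WT 1 and WT 4, the samples farthest from the median of the muscle score, r was 0.99 for mt-Rnr2 and 0.96 for mt-Co1 over the 5 others. The 18 relations, of 9 marker lists with these 2 genes, were computed after the values had been seen.

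Adipocyte markers followed in the same direction, with a rho of 0.96 for mt-Rnr2 (exact permutation test, P = 0.00278, adjusted P = 0.0167) and 0.93 for mt-Co1 (exact permutation test, P = 0.00675, adjusted P = 0.0304). Their r values were 0.77 (exact permutation test, P = 0.0369, adjusted P = 0.113) and 0.79 (exact permutation test, P = 0.0345, adjusted P = 0.113), and 0.83 and 0.79 without WT 4 and Trpc1-/- 3. For chondrocyte, osteoblast and osteocyte, osteoclast, erythroid, neutrophil, B-cell, and endothelial markers, no rho had an adjusted P under 0.05 (exact permutation test, lowest adjusted P = 0.170). Among these, neutrophil markers had the r values of largest size, -0.82 for mt-Rnr2 (exact permutation test, P = 0.0375, adjusted P = 0.113) and -0.83 for mt-Co1 (exact permutation test, P = 0.0214, adjusted P = 0.113), which were 0.12 and -0.17 without WT 1 and Trpc1-/- 2. A large r over 5 samples was not particular to muscle. For chondrocyte markers, r with mt-Rnr2 and mt-Co1 went from -0.29 and -0.24 to -0.97 and -0.98 without Trpc1-/- 1 and 3. For erythroid markers it went from -0.31 for both to 0.93 and 0.92 without WT 1 and Trpc1-/- 1. For osteoclast markers it was 0.16 and 0.19 without WT 1 and WT 4. By the numbers in the names of the count columns, WT 3 and WT 4 stand apart from the 5 other samples. These are fewer than the 6 required here for a correlation. Within these 5, the order by the muscle markers and by mt-Rnr2 was the same (WT 2, Trpc1-/- 1, 2, and 3, WT 1). The mean of the muscle markers ranged from 2.43 to 6.65 in WT and from 4.68 to 6.37 in Trpc1-/- samples, so the genotypes overlapped in it. The part of muscle RNA in the mitochondrial levels was not tested.

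**Figure D5:**
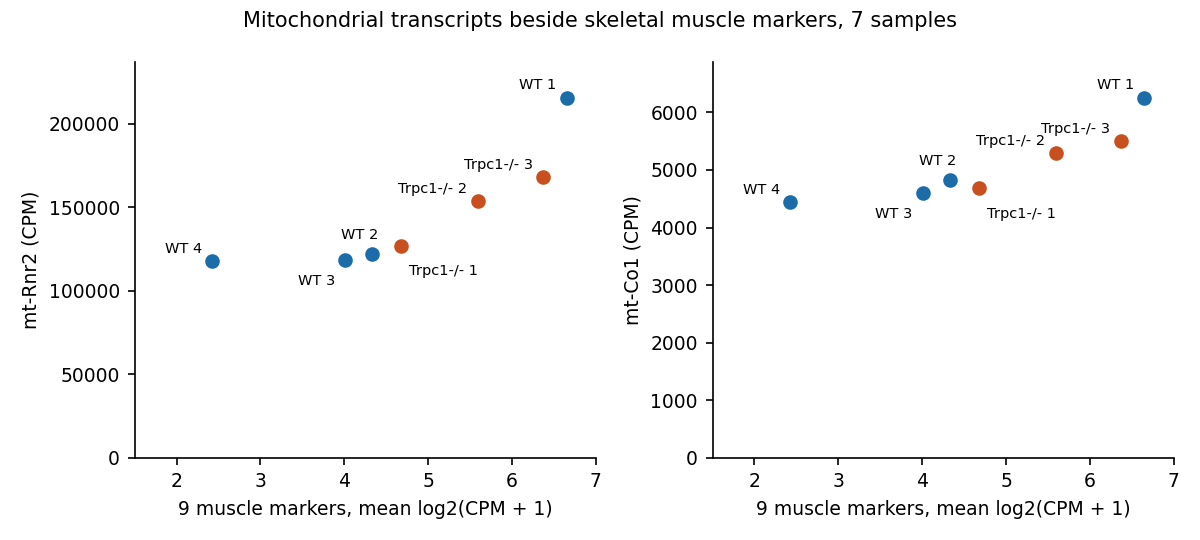
CPM of mt-Rnr2 (left) and mt-Co1 (right) against the mean log2(CPM + 1) of 9 skeletal muscle markers, with 1 labelled point per sample, WT in blue and Trpc1-/- in orange. Both levels go up with the muscle markers, from WT 4 at 2.43 to WT 1 at 6.65, within WT as within Trpc1-/- samples.

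The nuclear genes that maintain, transcribe, and process mtDNA were read from the same test. None was called by edgeR. Of 10 genes of mtDNA maintenance, 7 had a logFC above 0, with a median of 0.04 (4 of 10 and -0.02 with library sizes alone as the scaling). Polg, the mtDNA polymerase, averaged 80.9 ± 3.87 CPM (SD, n = 4) in WT and 73.5 ± 1.07 CPM (SD, n = 3) in Trpc1-/- samples (logFC -0.14, SE 0.07), and Twnk, the helicase, 9.10 ± 0.110 CPM (SD, n = 4) and 9.36 ± 0.221 CPM (SD, n = 3). Of 10 genes of transcription, 8 had a logFC above 0 (5 of 10 with library sizes alone). Polrmt was 1 of the 2 others, at 14.6, 14.2, 13.5, and 14.4 CPM in WT 1 to 4 and 12.5, 11.6, and 12.8 CPM in Trpc1-/- 1 to 3, without overlap (logFC -0.20, SE 0.07, edgeR adjusted P = 0.455). For Tfam, which packages mtDNA, the logFC was 0.13 (SE 0.07). For Tfb2m, which opens the promoter, it was 0.12 (SE 0.07), and for the elongation factor Tefm 0.11 (SE 0.15). Groups of a gene with lower values in Trpc1-/- samples were apart in 6.42% of all genes.

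Among 21 genes of mitochondrial RNA processing and decay, 16 had a logFC above 0, with a median of 0.12, and 3 had an unadjusted P under 0.05, all higher in Trpc1-/- samples (14.3%, where 4.51% of all genes were higher at that level). In 7 of the 21 the groups were apart with higher values in Trpc1-/- samples, against 7.15% of all genes. Trmt10c, a subunit of the enzyme that cuts tRNAs at their 5′ end, averaged 16.2 ± 0.170 CPM (SD, n = 4) in WT and 19.7 ± 0.363 CPM (SD, n = 3) in Trpc1-/- samples. The groups were apart by more than their spread (logFC 0.28, SE 0.06, edgeR adjusted P = 0.395, DESeq2 adjusted P = 0.00163). DESeq2's call was lost without WT 2, WT 3, Trpc1-/- 1, or Trpc1-/- 3, with adjusted P values between 0.0655 and 0.164, and also with the replicate block (0.864) and without WT 3 and WT 4 together (0.211), while its logFC stayed between 0.27 and 0.30. Fastkd5, which acts on mRNAs that no tRNA flanks, and Tfb1m, the methyltransferase of the 12S rRNA, had logFC values of 0.23 (SE 0.08) and 0.41 (SE 0.17) and adjusted P values of 0.439 and 0.482 in edgeR. Lrpprc, which stabilizes mitochondrial mRNAs, averaged 56.8 ± 3.07 CPM (SD, n = 4) in WT and 62.7 ± 1.95 CPM (SD, n = 3) in Trpc1-/- samples (logFC 0.14, SE 0.07). Ppargc1a, a coactivator of mitochondrial biogenesis, was highest in WT 1 at 3.04 CPM, against 0.585 to 1.11 in the other 6 samples, and its logFC of -0.58 (SE 0.54) turned to 0.10 without WT 1.

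The nuclear partners of the mitochondrial mRNAs in the respiratory complexes had slightly higher values in Trpc1-/- samples. Of 72 nuclear subunits of complexes I, III, IV, and V, all had a logFC above 0, with a median of 0.23, whereas 48.1% of all tested genes did. With library sizes alone as the scaling, which moved the median of all genes to -0.07, the count was 69 of 72 and the median 0.16. None of the 72 was called by edgeR, and 8 (11.1%) had an unadjusted P under 0.05, all higher in Trpc1-/- samples, where 4.51% of all genes were higher at that level. In 14 of the 72 the groups were apart with higher values in Trpc1-/- samples, against 7.15% of all genes. By complex, the medians were 0.21 for 36 subunits of complex I, 0.23 for 9 of complex III, 0.27 for 11 of complex IV, and 0.24 for 16 of complex V. The mitochondrial mRNAs of these complexes had medians of -0.04, -0.04, 0.04, and 0.02, in the same order. Without WT 1, these medians were 0.17, 0.10, 0.16, and 0.16, beside 0.11, 0.13, 0.16, and 0.12 for the nuclear subunits, so that the contrast between them rested on WT 1. Uqcrq of complex III had the smallest P of the subunits, at 14.0 ± 0.887 CPM (SD, n = 4) in WT and 17.2 ± 0.480 CPM (SD, n = 3) in Trpc1-/- samples (logFC 0.30, SE 0.08, edgeR adjusted P = 0.395, DESeq2 adjusted P = 0.0272). DESeq2's call of Uqcrq was lost when any 1 sample other than WT 1 was left out, with adjusted P values between 0.0715 and 0.532, and also with the replicate block (0.818) and without WT 3 and WT 4 together (0.158), while its logFC stayed between 0.26 and 0.36. Ndufa5, Ndufb5, Ndufa12, Ndufb9, and Ndufs6 of complex I, Cox7c of complex IV, and Atp5l of complex V had logFC values between 0.23 and 0.35 and edgeR adjusted P values between 0.408 and 0.496.

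These subunits were lowest in WT 1, the sample in which the mitochondrial mRNAs were highest. In WT 1, the mean log2(CPM + 1) was 4.78 over the 72 nuclear subunits and 8.59 over the 13 mitochondrial mRNAs. In the other WT samples it was 5.21 to 5.32 and 7.91 to 8.20, and in Trpc1-/- samples 5.27 to 5.44 and 7.97 to 8.26. Without WT 1, 65 of the 72 remained above 0, with a median of 0.12. The proteins of the mitochondrial ribosome behaved likewise. Of 78 genes, 73 had a logFC above 0, with a median of 0.19, and 6 (7.69%) had an unadjusted P under 0.05, namely Mrpl35, Mrpl17, Mrpl20, Mrpl13, Mrpl55, and Mrps28, all higher in Trpc1-/- samples, where the background was 4.51%. In 10 of the 78 the groups were apart and higher, against 7.15%. The smallest was that of Mrpl35 (logFC 0.35, SE 0.11, edgeR adjusted P = 0.410). Without WT 1, 70 of the 78 were above 0, with a median of 0.08. WT 1 also had the lowest mean of the neutrophil markers, at 9.14 against 10.2 to 10.6 in the other 6 samples, and of the erythroid markers, at 9.53 against 9.89 to 10.6. All 10 erythroid markers with a row were higher in Trpc1-/- samples and all 12 chondrocyte markers lower, with median logFC values of 0.58 and -0.48 (10 and 5 at an unadjusted P under 0.05, none called by edgeR), where 4.51% of all genes were higher and 5.49% lower at that level. The part of these cells in the nuclear subunits was not tested.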

How the data were processed

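RNA from 4 WT and 3 Trpc1-/- samples, grouped by their labels, was sequenced from stranded total RNA libraries after RiboZero depletion (75-base paired reads). The authors trimmed with Cutadapt 2.5, aligned to GRCm38 with HISAT2 2.1.0, and deposited estimated counts per gene from StringTie 2.0.3, which were whole numbers for 55401 genes. How they placed reads with more than 1 origin is not given in the sources used here. Totals ranged from 52142451 to 118254070 counts.

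The 16429 genes above 1 CPM in 2 samples or more entered edgeR 4.0.16 (TMM factors, quasi-likelihood test, genotype only), and P values were adjusted by Benjamini-Hochberg, with a threshold of 0.05. CPM values use TMM factors, whereas percentages are of raw totals. DESeq2 1.42.0, limma-voom (limma 3.58.1), other scalings and filters, a replicate block, and leaving out each sample were alternatives. The block fit used replicates 1 to 3 of each group and left out WT 4. The edgeR and DESeq2 code was tested on simulated data. Of 67 genes changed 1.5-fold there, edgeR called 9 (13.4%) and DESeq2 28. Of 65 genes changed 2-fold, edgeR called 46 (70.8%) and DESeq2 60. Among the unchanged genes, edgeR made 7 false calls and DESeq2 45. Ratios of 2 genes were compared by exact permutation tests, adjusted over 4. Nuclear copies were found with BLAST 2.17.0 among GENCODE M21 transcripts (at least 95% identity).

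All mt- genes are named. Of each nuclear list, up to 6 genes were eligible by the smallest edgeR P among those with an unadjusted edgeR P or an adjusted DESeq2 P under 0.05, besides Polrmt, Tfam, Tfb2m, Tefm, Polg, Twnk, Lrpprc, and Ppargc1a. Of the marker lists, the highest and lowest genes were eligible. Members and lists were chosen with earlier results of these data known. Samples were pools of mice from 1 colony, and P values measure the spread between these pools.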

Additional observations from a re-analysis of the deposited data

Results flagged for a closer look

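Of 29 sets of 4 WT values examined, 4 had a sample farther from the others than Dixon's 95% critical value for 4 samples allows, and chance flags about 1 in 20 sets. The sample was WT 1 in each. mt-Rnr2 was at 215591 CPM in WT 1 and between 117765 and 121997 CPM in the other WT samples, and mt-Co3 at 1708 CPM against 1176 to 1263 CPM. The rRNA genes took 21.3% of all counts in WT 1 and 13.2% to 13.8% in the others, and all mitochondrial genes 22.5% against 14.2% to 14.9%. These sets share counts and are not independent. WT 1 also had the smallest library of the 7, at 52142451 counts, and the highest skeletal muscle markers, at 1267 CPM in sum. The paper's methods give RNA integrity only as a mean and SD over the 7 samples, so its value in WT 1 is not known here. The part of library size, muscle RNA, or RNA integrity was not tested.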

How the results depend on the processing

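No member was called by edgeR under any alternative run. The calls over all genes moved more. edgeR called 0 of them, limma-voom 1, and edgeR between 0 and 52 when each sample was left out in turn, the 52 without WT 1. DESeq2 called 294 with all samples and 54 with the replicate number as a block, a fit without WT 4. With the 5 samples other than WT 3 and WT 4 it called 181. It called between 37 and 892 when each sample was left out, the 892 without WT 1. Leaving out WT 2, WT 3, Trpc1-/- 1, or Trpc1-/- 3 gave 62, 134, 84, and 37. Among the members DESeq2 called between 0 and 1 when each sample was left out, the 1 being mt-Rnr2 without WT 1. The small logFC values of the members changed sign in many alternatives. Only values of the opposite sign to that with all samples follow. With the replicate number as a block, it was 0.017 for mt-Rnr1, -0.065 for mt-Nd1, -0.010 for mt-Co1, -0.038 for mt-Ts1, -0.0076 for mt-Co2, -0.014 for mt-Atp8, -0.0092 for mt-Co3, and -0.070 for mt-Nd3. With the 5 samples other than WT 3 and WT 4, it was -0.18 for mt-Rnr2, -0.022 for mt-Tl1, -0.16 for mt-Nd1, -0.10 for mt-Tq, -0.11 for mt-Co1, -0.15 for mt-Ts1, -0.092 for mt-Co2, -0.14 for mt-Atp8, -0.11 for mt-Co3, and -0.14 for mt-Nd3. With limma-voom, it was -0.0072 for mt-Nd1 and 0.021 for mt-Nd6. With library sizes only, it was -0.052 for mt-Nd1, -0.015 for mt-Co1, -0.030 for mt-Ts1, -0.012 for mt-Co3, and -0.0053 for mt-Nd3. With upper quartile scaling, it was -0.013 for mt-Nd1. With factors from nuclear counts only, it was -5.4e-05 for mt-Nd1. Without a filter on low counts, it was 0.0045 for mt-Atp6 and 0.0048 for mt-Nd6. Leaving out 1 sample at a time, the logFC ran from -0.22 to 0.31 for mt-Rnr1, -0.034 to 0.32 for mt-Rnr2, -0.070 to 0.10 for mt-Nd1, -0.16 to 0.17 for mt-Nd2, -0.021 to 0.16 for mt-Co1, -0.061 to 0.16 for mt-Ts1, -0.014 to 0.16 for mt-Co2, -0.027 to 0.19 for mt-Atp8, -0.12 to 0.13 for mt-Atp6, -0.028 to 0.17 for mt-Co3, -0.17 to 0.28 for mt-Nd3, -0.29 to 0.084 for mt-Nd4l, -0.21 to 0.24 for mt-Nd4, -0.27 to 0.21 for mt-Nd5, -0.17 to 0.096 for mt-Nd6, and -0.12 to 0.097 for mt-Cytb. The median logFC of the transcription genes was 0.015 with library sizes only, 0.10 without a filter, 0.12 with the 5 samples other than WT 3 and WT 4, and 0.040 to 0.11 with each sample left out. For maintenance it was -0.021 and for RNA processing 0.059 with library sizes only. With each sample left out it was 0.056 to 0.15 for RNA processing and -0.23 to 0.037 for the biogenesis regulators, the positive value without WT 1. The log2 difference of the mt-Nd6 to mt-Nd5 ratio was -0.087 with the replicate block and -0.28 to 0.21 with each sample left out. The cause of these changes was not tested. Samples with the same replicate number did not deviate together (correlations of their deviations from the group means -0.45, -0.34, and -0.0044), so the number was not taken as a pairing. Adding the chromosome 1 rows to their genes, an alternative chosen after seeing the data, kept the direction of the class shares. Depth was no limit for rRNAs and mRNAs, whose precision was set by the spread between few pooled samples, whereas most tRNA rows held too few counts to be tested.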
